A study of Ophthalmotilapia nasuta and Ophthalmotilapia ventralis with 60 samples.

Results

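The genes described here are the cadherins and protocadherins of the brain of 2 cichlid species, chosen as the genes whose name starts with cdh, pcdh, cdhr, celsr or dchs followed by a digit. The rule found 25 of the 36499 genes counted, and it looks at names alone, not at measured values. All 25 had a read, and 18 of them passed the filter on low counts (a level above 15 CPM, the count scaled to a common library size, in 4 or more libraries). Of all genes, 11680 passed it. The 3′ ends of transcripts were sequenced in 6 parts of the brain, the telencephalon, olfactory bulbs, diencephalon, optic tectum, cerebellum and brain stem, of 5 females of Ophthalmotilapia nasuta (O. nasuta) and 5 females of Ophthalmotilapia ventralis (O. ventralis), which gave 60 libraries from 10 fish. All fish were wild-caught, mature and untreated. Each species came from a collecting site of its own, had its own aquarium and was dissected as a block, O. nasuta before O. ventralis, so that species and these circumstances cannot be told apart. The diencephalon was taken with the preoptic area, hypothalamus and pituitary. A bulb sample (O. nasuta fish 5) with a total of 25798 counts was not used, so that 59 libraries remained.

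Cadherins are membrane proteins whose extracellular repeats bind, with the help of calcium, to cadherins of a neighbouring cell. Classic cadherins (type I and type II) anchor this contact to the actin skeleton through catenins, and their combinations sort neurons into nuclei and layers of the vertebrate brain and stabilise synapses. The delta protocadherins, named delta1 and delta2 after conserved motifs of their inner part, adhere more weakly, do not bind beta-catenin, and take part in cell movement, axon growth and synapse formation. The family also holds the tip-link cadherins of hair cells and the large Flamingo (celsr) and Dachsous (dchs) cadherins, which orient cells within a tissue.

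The 25 genes were 2 type I classic cadherins (cdh2, cdh15), 6 type II classic cadherins (cdh5, cdh7, cdh11, cdh18, cdh20, cdh22), 2 delta1 protocadherins (pcdh7, pcdh9), 4 delta2 protocadherins (pcdh8, pcdh10, pcdh17, pcdh19), 2 other protocadherins (pcdh12, pcdh20), 3 tip-link and related cadherins (cdh23, pcdh15, cdhr2), 3 Flamingo and Dachsous cadherins (celsr1, celsr3, dchs2) and 3 other cadherins (cdh13, cdh16, cdh17). Thus 8 genes counted as classic cadherins and 8 as protocadherins, and pcdh15 was placed with cdh23, its partner in the tip link. The names are those of the gene annotation of the Nile tilapia, Oreochromis niloticus, the genome to which the reads had been mapped. Relatives that carry only a locus name there were not counted.

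The 59 libraries held 137128 to 1531630 counts in genes (median 519523), of which the 25 genes took 0.153% to 0.353%, or 232 to 3543 counts. For a gene with no read, counting error alone allows a level of up to 2.09 CPM in the deepest library and 21.8 CPM in the shallowest, the olfactory bulbs of O. ventralis fish 2. Marker genes of the brain parts were checked against the labels. The summed level of 12 brain stem markers was 1434 to 2751 CPM in the brain stem of O. nasuta and 1576 to 2076 CPM in that of O. ventralis, against 36.2 to 277 CPM in the libraries of the other parts. The sums of the lists for cerebellum, diencephalon and optic tectum also separated their own part from the others. The telencephalon list did not, since its genes were also high in the olfactory bulbs. Nor did that of 5 bulb markers, which summed to 129 to 2304 CPM in the bulbs of O. nasuta and 430 to 3799 CPM in those of O. ventralis, against up to 603 CPM (O. nasuta) and 762 CPM (O. ventralis) in the optic tectum. Most of the optic tectum sum was meis2, which averaged 535 CPM (O. nasuta) and 632 CPM (O. ventralis) there. By contrast, gnrh3 averaged 232 CPM (O. nasuta) and 450 CPM (O. ventralis) in the bulbs. In the optic tectum it averaged 1.79 CPM (O. nasuta) and 1.57 CPM (O. ventralis). Single markers of other lists also departed from their sum. Of the cerebellum list, cbln1 averaged 1.19 CPM (O. nasuta) and 0.94 CPM (O. ventralis) in the cerebellum, against 69.6 and 65.5 CPM in the diencephalon. pcp4 was lowest in the cerebellum, and en2 and barhl2 were highest in the optic tectum. Of the telencephalon list, neurod2 was highest in the cerebellum (359 and 389 CPM). Moreover, the bulb libraries of O. nasuta fish 4 and O. ventralis fish 1 lacked markers of their label. In both, gnrh3, a marker of the terminal nerve in the bulbs, had no read, against 181 to 1084 CPM in the other 7 bulb libraries. npff measured 2.80 CPM and 0 CPM in them, against 389 to 1499 CPM in the other 7. tbr1 of the telencephalon list averaged 217 CPM (O. nasuta) and 221 CPM (O. ventralis) in the telencephalon. It measured 227 CPM in the library of O. nasuta fish 4, but 44.6 CPM in that of O. ventralis fish 1. Whether these libraries hold another tissue was not tested. Results on the bulbs are therefore given with and without these libraries.

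All levels below are counts scaled to a common library size (CPM with TMM factors). The protocol yields 1 fragment per transcript, so that levels of different genes were not divided by gene length, although they still depend on how well a 3′ end is annotated and matched. Within a species, every part was set against the mean of its 5 counterparts by the quasi-likelihood F-test of edgeR, with fish as a factor. Adjusted p-values are those of a stage-wise procedure, that is, a joint test over all 12 comparisons at a false discovery rate of 0.05 and then Holm's correction inside each gene that passed. Since the average of the other parts is taken on the log scale, a log2 fold change can differ from the ratio of mean levels. As each library holds many cell types, fewer cells of a type and less RNA per cell cannot be told apart.

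Transcripts of the 8 protocadherins counted outnumbered those of the 8 classic cadherins counted in every part of the brain. Relatives that carry only a locus name are in neither sum. Summed over a library, the 8 protocadherins averaged 1311 CPM and the 8 classic cadherins 597 CPM, and protocadherins were higher in 59 of 59 libraries. The single most abundant gene was pcdh7, with a mean of 481 CPM and 20.6% of the summed level of the family, followed by pcdh9 (288 CPM), pcdh19 (275 CPM), celsr3 (216 CPM), cdh2 (211 CPM) and pcdh17 (179 CPM). Together pcdh7, pcdh9, pcdh19 and pcdh17 made up 52.4% of the family. Of the 8 classic cadherins counted, cdh2 was thus the most abundant, and cdh11 (128 CPM) was the most abundant one of type II. The other tested members averaged between 26.7 CPM (cdh5) and 109 CPM (cdh13).

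Of the 18 members tested, 17 passed the joint test over brain parts, and 76.5% of all tested genes did so too. The exception was cdh13, a cadherin without a transmembrane domain that is held in the membrane by a lipid anchor. Its mean level lay between 85.9 and 126 CPM in all 12 groups of species and part, and its joint adjusted p was 0.228. The same 17 members were called in at least 1 of the 12 comparisons, against 69.7% of all genes. They had 93 calls in total. In 36 pairs of a member and a part the call had the same direction in both species, and in 0 pairs were the calls opposite. The shares of all genes called in both species are given below for each part. That of opposite calls over all genes is not given, so whether this concordance is particular to the family was not tested.

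The calls were concentrated in the cerebellum and the optic tectum, with opposite signs. In the cerebellum, 8 of 18 members were lower than in the other parts in both species (17.1% of all genes were) and 2 were higher (15% of all genes). In the optic tectum, 9 of 18 were higher in both species (10.2% of all genes) and 0 lower (5.6%). The median log2 fold change of the 18 members was −0.81 in the cerebellum of O. nasuta and −0.77 in that of O. ventralis, and it was 0.56 in the optic tectum of O. nasuta and 0.66 in that of O. ventralis, while that of all genes lay between −0.04 and 0.01. The optic tectum had the highest mean level of 10 of the 18 members in each species, and the cerebellum had the lowest mean level of 9 members in O. nasuta and 11 in O. ventralis. How many of all genes had their highest or lowest mean in these parts is not given. In the diencephalon 5 of 18 members were lower in both species (4.92% of all genes) and 0 higher (9.36%). In the other parts few members changed in both species. There were 2 higher (9.85% of all genes) and 1 lower (4.09%) in the brain stem, 4 higher (9.33%) and 1 lower (5.24%) in the olfactory bulbs, and 2 higher (12.6%) and 2 lower (9.01%) in the telencephalon. Some of these smaller counts depended on single fish. Those of 2 higher members in the telencephalon and of 1 lower member in the brain stem and in the bulbs did not. The diencephalon count of 5 was 3 without O. ventralis fish 1 or fish 5. The brain stem count of 2 was 0 without O. ventralis fish 5, was 1 without O. nasuta fish 2 or O. ventralis fish 1 or fish 3, and was 4 with DESeq2 in place of edgeR. The bulb count of 4 was 1 without O. ventralis fish 1, and 2 without O. nasuta fish 1 or O. ventralis fish 3 or fish 5. The telencephalon count of 2 lower members was 1 without O. nasuta fish 2 or O. ventralis fish 1, 3, 4 or 5. With 1 fish left out, the cerebellum held 8 to 9 lower members and the optic tectum 8 to 9 higher ones.

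By species, the cerebellum had 2 members higher and 9 lower in O. nasuta (17.3% and 19.9% of all genes) and 5 higher and 10 lower in O. ventralis (19.2% and 21.8%). The optic tectum had 9 higher and 0 lower in O. nasuta (14.4% and 8.93%), and 11 higher and 0 lower in O. ventralis (12.7% and 7.39%). The diencephalon had 1 higher and 5 lower in O. nasuta (11.6% and 6.53%), and 1 higher and 6 lower in O. ventralis (12.4% and 8.11%). Lower calls thus outnumbered higher ones in the cerebellum and the diencephalon of each species, as they did in the telencephalon (below). Among all genes, of these parts, this held in the cerebellum only. The brain stem had 5 higher and 1 lower in O. nasuta (13.9% and 6.31%), and 3 higher and 1 lower in O. ventralis (12.7% and 6.05%). The olfactory bulbs had 5 higher and 1 lower in O. nasuta (13.5% and 8.04%), and 5 higher and 2 lower in O. ventralis (15.2% and 9.02%). The telencephalon had 2 higher and 3 lower in O. nasuta (15.8% and 13.1%), and 2 higher and 4 lower in O. ventralis (16% and 12.2%).

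**Figure D1:**
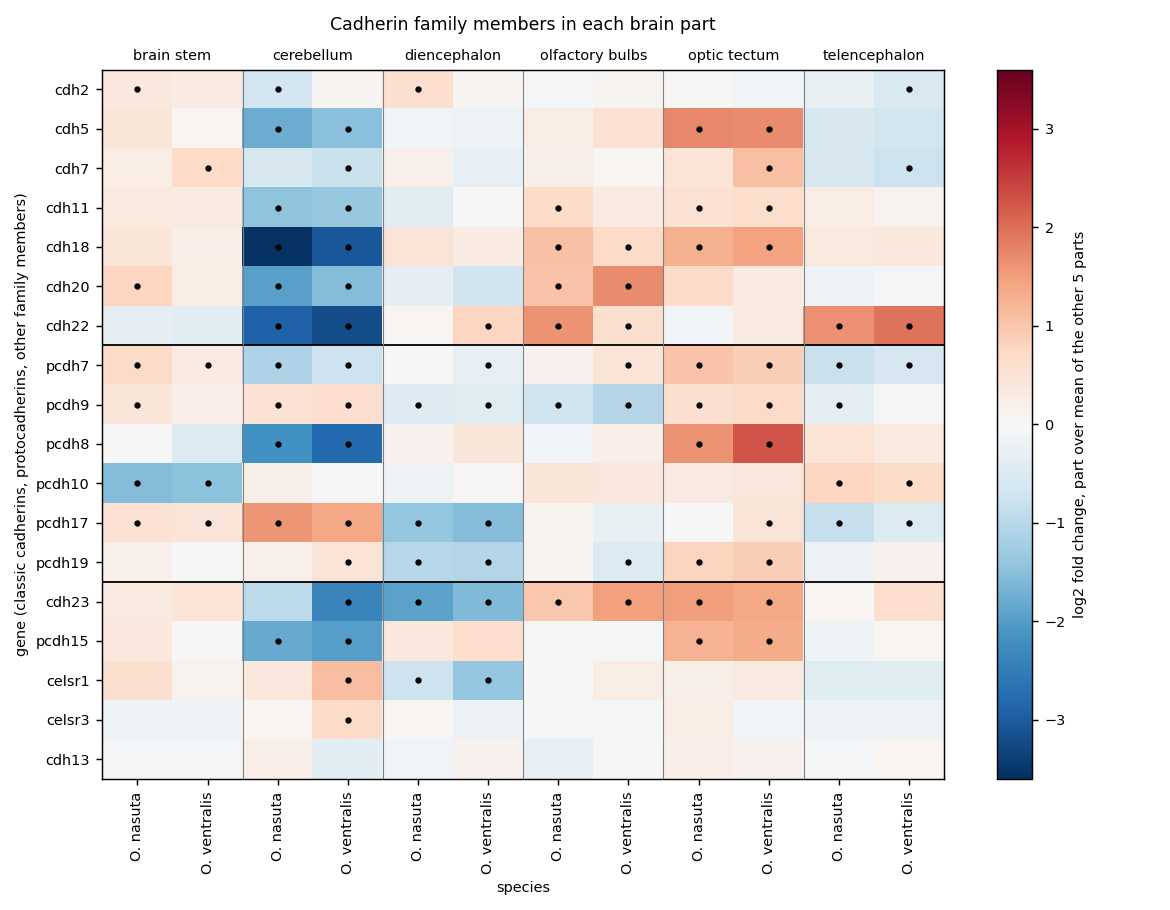
Log2 fold change of each of the 18 tested members (rows, with classic cadherins at the top, then protocadherins, then other members) in each brain part and species (columns), relative to the other 5 parts of that species. Red is higher, blue is lower, and a dot marks a call at a false discovery rate of 0.05. The cerebellum columns are mostly blue for classic cadherins (down to −3.57 for cdh18), whereas the optic tectum columns hold no call that is lower.

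Among the type II classic cadherins, cdh18 and cdh22 were the members with the largest differences. Both are neuronal cadherins known mainly from mammalian brain. In the cerebellum, cdh18 measured 0, 6.60, 8.88, 11.3 and 1.45 CPM in the 5 O. nasuta and 6.28, 7.65, 14.7, 8.90 and 3.68 CPM in the 5 O. ventralis. In the other parts it ranged from 38.6 to 139 CPM (median 70.6) in O. nasuta and from 14.6 to 132 CPM (median 58.8) in O. ventralis. All cerebellum libraries of O. nasuta thus lay below all others of that species, and in O. ventralis only 1 other library, the shallow bulb library of fish 2, reached into their range. In the cerebellum the log2 fold change of cdh18 was −3.57 ± 0.341 (SE, adjusted p = 6.81e-15) in O. nasuta and −3.05 ± 0.297 (adjusted p = 1.37e-14) in O. ventralis. The size of these values rests on few reads, 0 to 5 per cerebellum library in O. nasuta and 2 to 9 in O. ventralis. The highest levels of cdh18 were those of the optic tectum, with 71.0 to 139 CPM in O. nasuta, against 73.4 to 132 CPM in O. ventralis, and it was higher there in 5 of 5 fish of each species (log2 fold change 1.29 ± 0.183 in O. nasuta and 1.46 ± 0.192 in O. ventralis, adjusted p = 1.18e-08 and 1.18e-09).

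cdh22 had its highest mean level in the telencephalon, although in O. nasuta the mean of the olfactory bulbs was close to it (192 CPM in the telencephalon, against 191 CPM in the bulbs). That bulb mean includes the 305 CPM of fish 4, a library without gnrh3 reads, with 143 to 168 CPM in the others. In the telencephalon cdh22 measured 200, 202, 195, 155 and 206 CPM in O. nasuta, against 201, 210, 220, 263 and 174 CPM in O. ventralis, compared with medians of 67.5 CPM (O. nasuta) and 70.9 CPM (O. ventralis) in the other parts. The log2 fold change was 1.64 ± 0.156 in O. nasuta (adjusted p = 1.98e-14) and 1.95 ± 0.157 in O. ventralis (adjusted p = 1.88e-17). Only libraries of the olfactory bulbs overlapped with the telencephalon. In O. ventralis this was only that of fish 1 (187 CPM), which also lacked gnrh3. In the cerebellum cdh22 was lowest, with 4.44 to 23.1 CPM in O. nasuta, against 8.38 to 14.7 CPM in O. ventralis. This gave the largest difference of the family in O. ventralis (log2 fold change −3.20 ± 0.271, adjusted p = 1.77e-16), and in O. nasuta it was −2.90 ± 0.280 (adjusted p = 3.70e-14).

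The other type II cadherins were also lower in the cerebellum. cdh11, a type II cadherin first known from bone-forming cells and also present in neurons, measured 33.9 to 66.6 CPM in the cerebellum of O. nasuta, below all 24 other libraries of that species (80.4 to 322 CPM). In O. ventralis it measured 33.1 to 71.2 CPM, and 1 of 25 other libraries fell into that range. The log2 fold change was −1.44 ± 0.184 in O. nasuta and −1.36 ± 0.173 in O. ventralis (adjusted p = 3.80e-10 for each). For cdh20 it was −1.96 ± 0.370 in O. nasuta and −1.57 ± 0.308 in O. ventralis (adjusted p = 2.32e-05 and 4.90e-05), from mean levels of 11 ± 10.8 CPM (O. nasuta) and 10.7 ± 5.04 CPM (O. ventralis) in the cerebellum (SD, n = 5). cdh7 was lower in the cerebellum of O. ventralis (−0.80 ± 0.220, adjusted p = 0.0066), while in O. nasuta the value was −0.56 ± 0.237 (adjusted p = 0.156), and the call in O. ventralis ended without its fish 4 (−0.68). In O. ventralis cdh7 was also called higher in the optic tectum (log2 fold change 1.08) and brain stem (0.70), and lower in the telencephalon (−0.76). The brain stem call was lost without O. ventralis fish 3 (0.60), and the telencephalon call without its fish 1 or 5 (−0.74 to −0.53). In O. nasuta, cdh11, cdh18 and cdh22 lay below all other libraries in the cerebellum, as did 5.6% of all genes tested.

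cdh5, the cadherin of the junctions between endothelial cells of blood vessels, had its highest level in the optic tectum. It measured 50.6, 62.5, 42.6, 54.9 and 47.8 CPM there in O. nasuta, above all 24 other libraries (2.26 to 34.0 CPM), as 1.41% of all genes were. In O. ventralis it measured 70.9, 65.5, 62.6, 49.5 and 92.0 CPM, above 23 of the 25 other libraries (5.52 to 87.3 CPM). The log2 fold change was 1.74 ± 0.224 in O. nasuta (adjusted p = 4.74e-10) and 1.72 ± 0.222 in O. ventralis (adjusted p = 5.20e-10). In the cerebellum cdh5 was lower, by a log2 fold change of −1.77 ± 0.384 in O. nasuta and −1.49 ± 0.301 in O. ventralis (adjusted p = 0.00018 and 5.49e-05). Of 8 other endothelial markers, 7 were tested. Of these, 2 were called higher in the optic tectum of O. nasuta (esam, flt1, 14.4% of all genes were). In that of O. ventralis 2 others were (tie1, cldn5, 12.7% of all genes), so that 0 were called in both species (10.2%). Every tested marker had an optic tectum value above 0 in O. nasuta, as cdh5 did. For O. ventralis 6 markers had such a value, the exception being sox17 with −0.55 (adjusted p = 1). In the cerebellum 1 was called lower in O. nasuta (esam, 19.9% of all genes were) and 2 in O. ventralis (cldn5, flt1, 21.8% of all genes). The values of all 7 were below 0 there in each species. In the brain stem all 7 were above 0 in each species, without a call (13.9% of all genes were called higher in O. nasuta and 12.7% in O. ventralis). The summed level of the 8 was 148 ± 18.6 CPM (O. nasuta) and 141 ± 16.5 CPM (O. ventralis) in the optic tectum and 64.6 ± 15.6 CPM (O. nasuta) and 54.7 ± 12.7 CPM (O. ventralis) in the cerebellum (SD, n = 5), but it was also high in the brain stem (131 ± 44.0 CPM in O. nasuta, against 130 ± 16.9 CPM in O. ventralis), where cdh5 was not called. The part of blood vessel content in the cdh5 result was not tested.

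The 2 type I cadherins differed widely in level. cdh15, known from muscle, had 6 reads in total and is not considered further. cdh2 (N-cadherin), which joins neural progenitors and the pre- and postsynaptic membranes, was the classic cadherin with the most reads. It was lower in the cerebellum of O. nasuta (log2 fold change −0.68 ± 0.131, adjusted p = 2.29e-05), whereas the value in O. ventralis was 0.11 ± 0.114 (adjusted p = 1). In O. nasuta cdh2 was also higher in the diencephalon (0.60 ± 0.112, adjusted p = 1.38e-05) and the brain stem (0.38 ± 0.115, adjusted p = 0.0171), the brain stem call being lost without O. nasuta fish 1, 2 or 5 or O. ventralis fish 4 (0.31 to 0.37). In O. ventralis it was lower in the telencephalon (−0.55 ± 0.122, adjusted p = 0.00034). The call in the cerebellum thus stood in O. nasuta alone, and the test of the difference between the species is given with the species comparison.

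**Figure D2:**
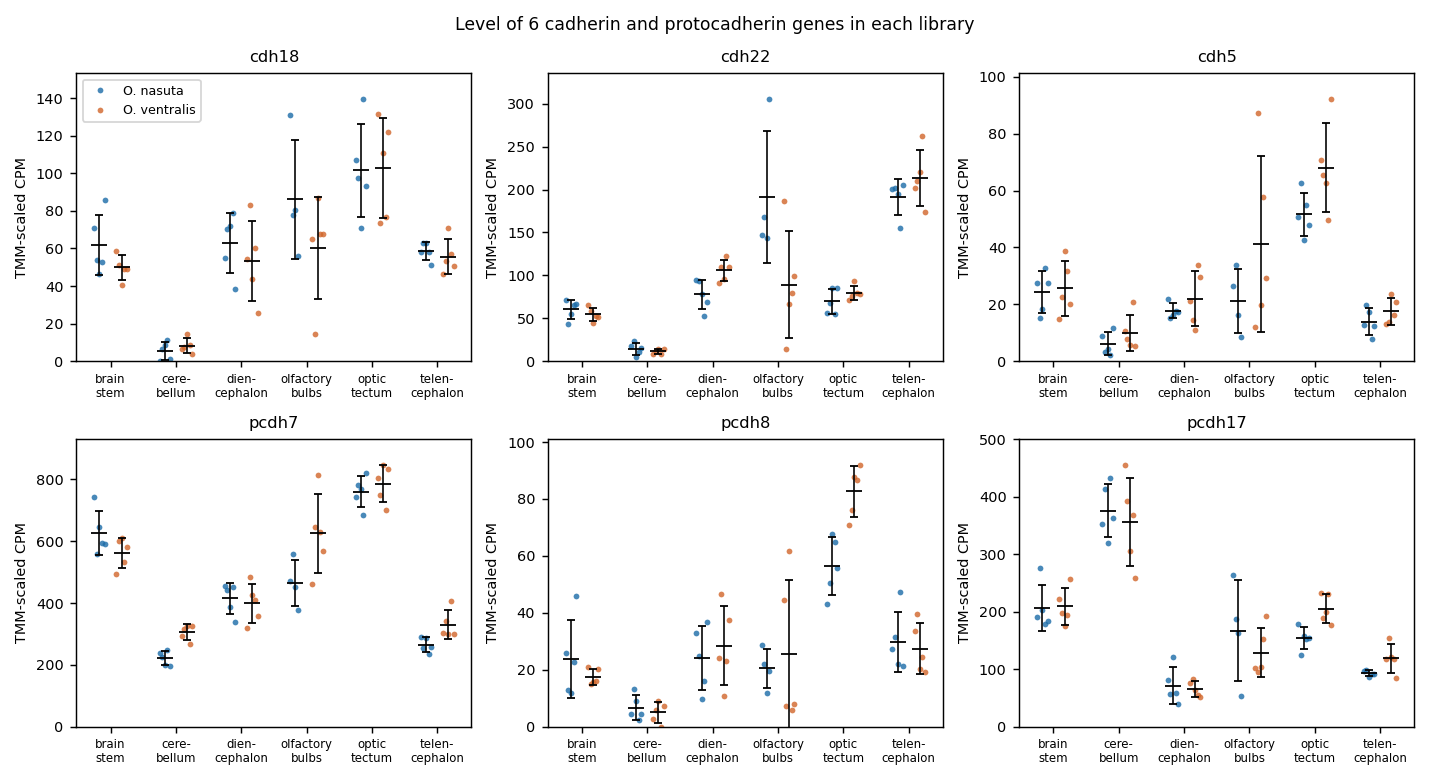
Level of 6 members in each library (points, in TMM-scaled CPM, separate axis per gene), by brain part, with O. nasuta (blue) left of O. ventralis (orange) and with the mean and SD of each group (black, cut off at 0). cdh18 and cdh22 are near 0 in the cerebellum, cdh5 and pcdh8 are highest in the optic tectum, and pcdh17 has its highest levels (up to 456 CPM) in the cerebellum.

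The delta1 protocadherins pcdh7 and pcdh9 were the most abundant pair of the family. pcdh7, known from Xenopus as a protocadherin of neural folds and retinal axons, differed between the parts by degrees. Its mean level was 761 ± 49.7 CPM in the optic tectum of O. nasuta and 787 ± 61.4 CPM in that of O. ventralis, and it was 627 ± 72.3 CPM (O. nasuta) and 563 ± 49.0 CPM (O. ventralis) in the brain stem (SD, n = 5). The lowest means were 265 ± 23.4 CPM (O. nasuta) and 330 ± 46.4 CPM (O. ventralis) in the telencephalon and 222 ± 23.2 CPM (O. nasuta) and 306 ± 25.1 CPM (O. ventralis) in the cerebellum. The olfactory bulbs (465 ± 74.1 CPM in O. nasuta, n = 4, and 625 ± 129 CPM in O. ventralis) and the diencephalon (415 ± 51.2 CPM in O. nasuta, against 400 ± 62.9 CPM in O. ventralis) lay between the optic tectum and the telencephalon. Many neighbours in this order overlapped. In both species the cerebellum overlapped with the telencephalon and the diencephalon with the olfactory bulbs. In O. nasuta the optic tectum also overlapped with the brain stem. In O. ventralis the diencephalon overlapped with the telencephalon and the cerebellum, and the olfactory bulbs with the brain stem and the optic tectum. The pcdh7 log2 fold change was 1.04 ± 0.0891 in O. nasuta and 0.88 ± 0.0906 in O. ventralis in the optic tectum (adjusted p = 2.19e-17 and 6.88e-14), 0.70 ± 0.092 in O. nasuta and 0.30 ± 0.0933 in O. ventralis in the brain stem (adjusted p = 5.95e-10 and 0.0101), −0.79 ± 0.102 in O. nasuta and −0.61 ± 0.101 in O. ventralis in the telencephalon (adjusted p = 4.63e-10 and 3.91e-07), and −1.10 ± 0.109 in O. nasuta and −0.74 ± 0.102 in O. ventralis in the cerebellum (adjusted p = 2.27e-14 and 2.45e-09). The brain stem call of pcdh7 in O. ventralis was lost without fish 5 of that species (0.28).

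pcdh9 did not share the cerebellum pattern of pcdh7. It was higher in the cerebellum (log2 fold change 0.52 ± 0.103 in O. nasuta and 0.61 ± 0.0995 in O. ventralis, adjusted p = 2.58e-05 and 5.23e-07) as well as in the optic tectum (0.56 ± 0.0998 in O. nasuta and 0.70 ± 0.101 in O. ventralis, adjusted p = 2.93e-06 and 2.19e-08). It was lower in the diencephalon (−0.47 ± 0.110 in O. nasuta and −0.45 ± 0.110 in O. ventralis, adjusted p = 0.000414 and 0.000609) and lowest in the olfactory bulbs. There it measured 188, 200, 154 and 193 CPM in 4 O. nasuta and 138, 124, 174, 133 and 159 CPM in 5 O. ventralis, the last group being below all 25 other libraries of that species (186 to 442 CPM), as 0.265% of all genes were. The log2 fold change in the bulbs was −0.70 ± 0.123 in O. nasuta (adjusted p = 2.41e-06) and −1.06 ± 0.121 in O. ventralis (adjusted p = 6.64e-12), and it was −0.77 in O. nasuta and −1.06 in O. ventralis without the bulb libraries of O. nasuta fish 4 and O. ventralis fish 1.

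The delta2 protocadherins fell into different patterns. pcdh17, which in mice acts at synapses of the basal ganglia, had its highest level in the cerebellum. It measured 352, 413, 320, 432 and 363 CPM in the cerebellum of O. nasuta and 456, 392, 306, 368 and 259 CPM in that of O. ventralis. The other libraries reached at most 276 CPM in O. nasuta, against 257 CPM in O. ventralis, so that the cerebellum did not overlap with any other part in either species (5.7% of all genes in O. nasuta and 5.28% in O. ventralis lay above all other libraries there). On the log2 scale this was a fold change of 1.59 ± 0.146 in O. nasuta (adjusted p = 2.57e-14) and 1.41 ± 0.143 in O. ventralis (adjusted p = 1.05e-12). pcdh17 was also somewhat higher in the brain stem (0.51 ± 0.158 in O. nasuta and 0.48 ± 0.155 in O. ventralis, adjusted p = 0.0183 and 0.0267), but these calls were weak. The one in O. nasuta was lost without O. nasuta fish 2 or O. ventralis fish 4 (0.35 to 0.47), and the one in O. ventralis without its fish 1, 3, 4 or 5 (0.37 to 0.51).

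In the diencephalon pcdh17 was at its lowest, with 81.8, 57.0, 121, 57.9 and 38.6 CPM in O. nasuta, against 75.6, 83.1, 63.2, 54.9 and 50.9 CPM in O. ventralis. The diencephalon of O. ventralis did not overlap with the other parts (83.7 to 456 CPM), which held for 0.334% of all genes, and the log2 fold change was −1.40 ± 0.189 in O. nasuta and −1.56 ± 0.193 in O. ventralis (adjusted p = 9.25e-09 and 7.29e-10). It was also lower in the telencephalon (−0.84 ± 0.171 in O. nasuta and −0.51 ± 0.171 in O. ventralis, adjusted p = 8.81e-05 and 0.029). The telencephalon call in O. ventralis was lost in 5 of 10 fits with 1 fish left out (without O. nasuta fish 2 or O. ventralis fish 1, 3, 4 or 5, with values of −0.53 to −0.38).

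pcdh19, whose loss in humans causes an epilepsy that affects mostly girls, shared the low level in the diencephalon and was highest in the optic tectum. It measured 121 to 158 CPM in the diencephalon of O. nasuta, below all 24 other libraries (190 to 459 CPM, 0.291% of all genes were), and 125 to 161 CPM in that of O. ventralis. Relative to the other parts, the log2 fold change was −1.04 ± 0.124 in O. nasuta and −1.06 ± 0.125 in O. ventralis (adjusted p = 3.31e-11 and 1.85e-11). In the optic tectum it measured 377 to 459 CPM in O. nasuta, above all other libraries, as 1.41% of all genes were. In O. ventralis it measured 366 to 485 CPM, and 3 libraries of other parts overlapped. There the log2 fold change was 0.80 ± 0.104 in O. nasuta (adjusted p = 6.23e-10) and 0.89 ± 0.107 in O. ventralis (adjusted p = 3.31e-11).

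pcdh8, known in rats as arcadlin, a protocadherin induced by neuronal activity, was less abundant but had the largest log2 fold changes of the tested protocadherins in both the optic tectum and the cerebellum. In the optic tectum it measured 43.1, 50.4, 67.8, 64.7 and 55.8 CPM in O. nasuta, against 70.9, 76.0, 87.6, 86.6 and 92.0 CPM in O. ventralis, with medians in the other parts of 21.6 CPM (O. nasuta) and 19.2 CPM (O. ventralis). In the cerebellum it measured at most 13.2 CPM in O. nasuta, against 8.82 CPM in O. ventralis. The optic tectum of O. ventralis was above all other libraries of the species, as 1.3% of all genes were. These levels gave a log2 fold change of 1.62 ± 0.262 in O. nasuta and 2.26 ± 0.261 in O. ventralis in the optic tectum (adjusted p = 1.05e-06 and 1.09e-10) and −2.19 ± 0.458 in O. nasuta and −2.80 ± 0.434 in O. ventralis in the cerebellum (adjusted p = 0.000162 and 4.37e-07). These are values of a gene with few reads, 874 in all libraries together.

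pcdh10, which takes part in the outgrowth of forebrain axons in mice, was low in the brain stem. It measured 19, 17.9, 21.7, 22.7 and 21.4 CPM there in O. nasuta, below all 24 other libraries of the species (32.3 to 104 CPM), whereas only 0.0771% of all genes were. In O. ventralis it measured 14.7, 30.2, 17.5, 22.9 and 26.0 CPM, and 3 of 25 other libraries fell into that range. The pcdh10 log2 fold change was −1.56 ± 0.244 in O. nasuta and −1.49 ± 0.230 in O. ventralis (adjusted p = 1.61e-07 and 1.39e-07). Its highest mean level was that of the telencephalon (78.1 ± 14.9 CPM in O. nasuta, against 79.7 ± 16.2 CPM in O. ventralis, log2 fold change 0.76 ± 0.17 in O. nasuta and 0.66 ± 0.175 in O. ventralis, adjusted p = 0.000369 and 0.00372).

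The tip-link cadherins cdh23 and pcdh15 are best known from the hair cells of the ear, which are not part of the dissected tissue. Both were detected in the brain, at a mean of 28.7 CPM (cdh23) and 35.7 CPM (pcdh15), and both were higher in the optic tectum in 5 of 5 fish of each species. cdh23 measured 63.8, 53.9, 58.4, 56.9 and 53.1 CPM in the optic tectum of O. nasuta and 60.7, 41.9, 53.7, 32.2 and 57.5 CPM in that of O. ventralis (log2 fold change 1.51 ± 0.281 in O. nasuta and 1.38 ± 0.323 in O. ventralis, adjusted p = 3.58e-05 and 0.000933). For pcdh15 the log2 fold change there was 1.26 ± 0.206 in O. nasuta and 1.33 ± 0.211 in O. ventralis (adjusted p = 5.05e-07 and 2.47e-07). Their calls differed in the diencephalon, while in the cerebellum both had negative values in each species. cdh23 was lower in the diencephalon (−1.92 ± 0.430 in O. nasuta and −1.58 ± 0.447 in O. ventralis, adjusted p = 0.000591 and 0.0085), where pcdh15 had values of 0.38 ± 0.230 in O. nasuta and 0.59 ± 0.215 in O. ventralis (adjusted p = 0.955 and 0.0752). The diencephalon call of cdh23 in O. ventralis was lost without its fish 1 or fish 5 (−1.50 to −1.49). The size of the cdh23 values rests on few reads, 1 to 7 per diencephalon library in O. nasuta and 2 to 6 in O. ventralis. In the cerebellum of O. ventralis cdh23 had 0 to 7 reads per library. pcdh15 was lower in the cerebellum (−1.82 ± 0.330 in O. nasuta and −1.97 ± 0.284 in O. ventralis, adjusted p = 5.52e-06 and 1.64e-08), where cdh23 was called in O. ventralis (−2.38 ± 0.467, adjusted p = 8.50e-05) and had a value of −0.94 ± 0.420 in O. nasuta (adjusted p = 0.199).

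The Flamingo cadherins celsr1 and celsr3 guide planar polarity and, in the case of celsr3, axon tracts. celsr1 was lower in the diencephalon, with 17.3, 11.4, 16.3, 27.3 and 13.5 CPM in O. nasuta, against 9.07, 14.7, 19.6, 10.6 and 13.4 CPM in O. ventralis (log2 fold change −0.73 ± 0.244 in O. nasuta and −1.40 ± 0.259 in O. ventralis, adjusted p = 0.046 and 1.05e-05). The call in O. nasuta is weak. It was lost in 8 of 10 fits with 1 fish left out (all but those without O. nasuta fish 1 or O. ventralis fish 3, with values of −0.87 to −0.61), and also without the filter, with all 60 libraries, with DESeq2 and without fish terms. In O. nasuta 13 of 24 other libraries fell into this range or below, in O. ventralis 2 of 25. celsr3 was called in 1 comparison, the cerebellum of O. ventralis, where its 312 to 421 CPM lay above all 25 other libraries of the species (80.0 to 284 CPM, 5.28% of all genes did so, log2 fold change 0.70 ± 0.118, adjusted p = 1.16e-06). celsr1 was higher in the same part of the same species (1.11 ± 0.186, adjusted p = 1.29e-06).

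In the olfactory bulbs the type II cadherins cdh18, cdh20 and cdh22 and the tip-link cadherin cdh23 were called higher in both species. Without the bulb libraries that lacked gnrh3, cdh22 lost its call in O. ventralis and the others kept theirs. cdh20 measured 78.6, 66.0, 51.3 and 19.6 CPM in the bulbs of O. nasuta and 26.4, 116, 72.8, 100 and 120 CPM in those of O. ventralis, with medians in the other parts of 29.7 CPM (O. nasuta) and 26.9 CPM (O. ventralis). The lowest value in each species was that of the library without gnrh3 (O. nasuta fish 4 and O. ventralis fish 1). The log2 fold change of cdh20 was 1.02 ± 0.247 in O. nasuta and 1.70 ± 0.229 in O. ventralis (adjusted p = 0.00134 and 6.20e-09), and without these 2 libraries it was 1.22 in O. nasuta and 2 in O. ventralis (adjusted p = 6.86e-06 and 1.61e-13). The cdh20 call in O. nasuta was lost without its fish 1 (0.73). For cdh22 the same libraries were the highest of their species (305 CPM in O. nasuta fish 4, with 143 to 168 CPM in the others, and 187 CPM in O. ventralis fish 1, with 14.6 to 98.9 CPM in the others). Its log2 fold change in the bulbs was 1.61 ± 0.176 in O. nasuta and 0.59 ± 0.190 in O. ventralis (adjusted p = 3.57e-12 and 0.0235), and without them it was 1.24 in O. nasuta and 0.14 in O. ventralis (adjusted p = 9.22e-11 and 1). The cdh22 call in O. ventralis was lost without its fish 5 as well (0.58).

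The bulb value of cdh23 in O. ventralis rested on another library, that of fish 3. cdh23 measured 168 CPM in it, against 7.28 to 36.5 CPM in the other 4 bulb libraries of the species. The log2 fold change of cdh23 was 0.96 ± 0.315 in O. nasuta and 1.47 ± 0.318 in O. ventralis (adjusted p = 0.0292 and 0.000362), and 0.52 in O. ventralis without the library of fish 3 (adjusted p = 0.367). In O. nasuta its call was lost without O. nasuta fish 1 or 2 or O. ventralis fish 1 (0.41 to 0.95). For cdh18 the values were 1.04 ± 0.201 in O. nasuta and 0.70 ± 0.208 in O. ventralis (adjusted p = 1.90e-05 and 0.0115), and 0.59 in O. ventralis without the library of fish 3 (adjusted p = 0.12). The cdh18 value thus moved little, but its call in O. ventralis was lost without any of fish 1, 3, 4 and 5 of that species (0.61 to 0.70). The number of members called higher in the bulbs of both species fell to 2 without this library. Without it, as without the libraries lacking gnrh3, cdh20 and pcdh9 kept their calls in both species.

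The 7 members below the filter had between 6 and 115 counts in all libraries together. They were cdh15, cdh16 and cdh17, known from muscle, kidney and intestine, the intestinal brush border cadherin cdhr2, the endothelial pcdh12, and pcdh20 and dchs2. For example, cdh15 had a read in 5 of 59 libraries and pcdh12 in 28. dchs2, a Dachsous cadherin, had reads in 45 libraries and was highest in the brain stem, with a mean of 8.52 CPM in O. nasuta, against 9.72 CPM in O. ventralis, and cdhr2 was highest in the diencephalon (6.02 CPM in O. nasuta, against 11.9 CPM in O. ventralis). In a fit without the filter, dchs2 was higher in the brain stem of both species (log2 fold change 1.52 in O. nasuta and 2.35 in O. ventralis, adjusted p = 0.0407 and 3.38e-05) and cdhr2 in the diencephalon of O. ventralis (2.51, adjusted p = 3.30e-06), while in O. nasuta its value was 1.58 (adjusted p = 0.106). The other 5 had no call in that fit.

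**Figure D3:**
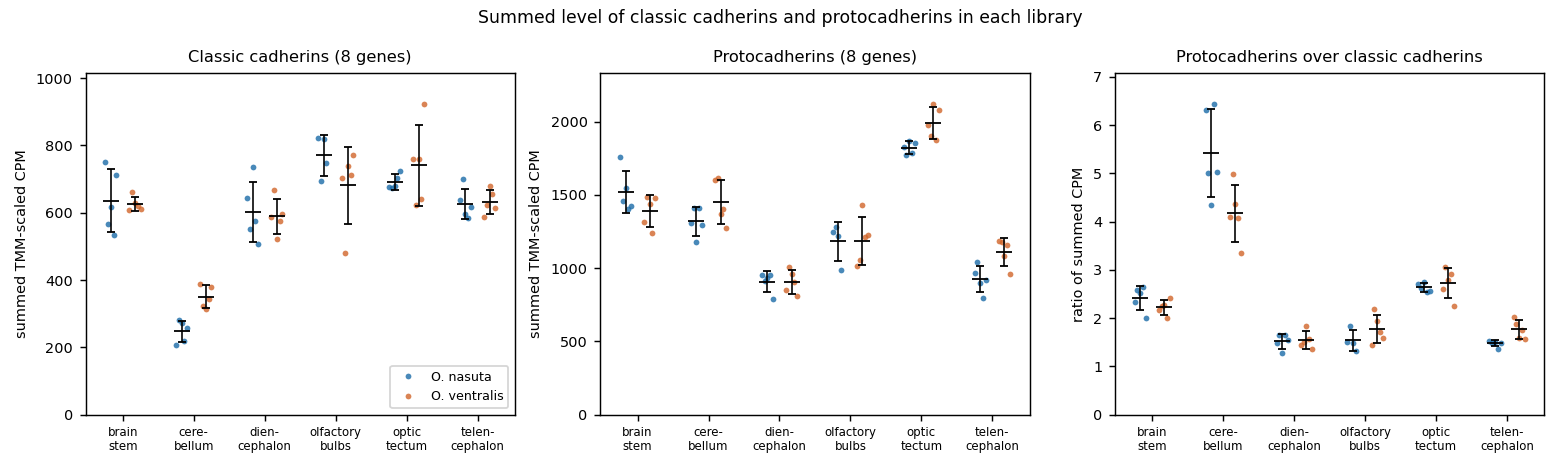
Summed level of the 8 classic cadherins (left) and the 8 protocadherins (middle), in TMM-scaled CPM, and the ratio of the protocadherin sum to the classic sum (right) in each library (points), by brain part, with O. nasuta (blue) left of O. ventralis (orange) and with mean and SD in black. Classic cadherins are lowest in the cerebellum (207 to 281 CPM in O. nasuta, against 314 to 389 CPM in O. ventralis), protocadherins are highest in the optic tectum, and all ratios are above 1.

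With the classes as chosen, classic cadherins and protocadherins parted in the cerebellum. pcdh15 was lower there in both species (log2 fold change −1.82 in O. nasuta and −1.97 in O. ventralis). It counts in neither class, and this placement was not varied. Of the 7 classic cadherins tested, 6 were lower there in O. nasuta and 6 in O. ventralis, 5 of them in both species (cdh5, cdh11, cdh18, cdh20, cdh22), and 0 were higher. Of the 6 protocadherins tested, pcdh17 and pcdh9 were higher (15% of all genes) and pcdh7 and pcdh8 lower (17.1%) in both species. Accordingly, the summed level of classic cadherins was 247 ± 32.1 CPM in the cerebellum of O. nasuta and 350 ± 33.6 CPM in that of O. ventralis, whereas the means of the other parts were 603 to 770 CPM (O. nasuta) and 590 to 741 CPM (O. ventralis). The summed level of protocadherins in the cerebellum, 1319 ± 97.2 CPM (O. nasuta) and 1451 ± 148 CPM (O. ventralis), was within the range of the other parts (908 to 1822 CPM in O. nasuta, against 907 to 1989 CPM in O. ventralis). The protocadherin level was therefore 5.34 times that of classic cadherins in the cerebellum of O. nasuta and 4.14 times in that of O. ventralis. It was 2.64 times (O. nasuta) and 2.68 times (O. ventralis) in the optic tectum, 2.39 times (O. nasuta) and 2.22 times (O. ventralis) in the brain stem, and between 1.48 and 1.76 times in the diencephalon, olfactory bulbs and telencephalon.

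Type II cadherins were low in the cerebellum of both species, and type I in that of O. nasuta. The 6 type II genes summed to 119 ± 23.3 CPM (O. nasuta) and 117 ± 16.9 CPM (O. ventralis) there. In the other parts their means were 329 to 585 CPM (O. nasuta) and 355 to 532 CPM (O. ventralis). The 2 type I genes summed to 128 CPM in the cerebellum of O. nasuta and 233 CPM in that of O. ventralis, with means in the other parts of 165 to 274 CPM (O. nasuta) and 163 to 262 CPM (O. ventralis). In the cerebellum cdh2 alone made up 51.8% of the summed level of the classic cadherins counted in O. nasuta and 66.6% in O. ventralis. In the optic tectum both classes were high, with 3 of 7 classic cadherins (cdh5, cdh11, cdh18) and 4 of 6 protocadherins (pcdh7, pcdh8, pcdh9, pcdh19) higher in both species (10.2% of all genes were). The cdh11 call in O. nasuta was lost there without its fish 4 (0.43). In the diencephalon the members that were lower in both species were protocadherins (pcdh9, pcdh17, pcdh19), cdh23 and celsr1 (4.92% of all genes were). No classic cadherin was lower in either species (6.53% of all genes in O. nasuta and 8.11% in O. ventralis). These sums describe the classes as chosen and were not tested against each other.

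As a description over the 59 libraries, which share fish and brain parts, some members had alike profiles. The log2 levels of cdh11 and cdh18 had a Pearson correlation of 0.84 (Spearman 0.73), those of cdh5 and pcdh7 0.79 (0.78) and those of cdh18 and pcdh8 0.73 (0.70). The most opposite pair was cdh22 and pcdh17 (−0.66).

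The species were compared within each brain part, as O. nasuta minus O. ventralis, in a model without fish terms. Of the 108 pairs of a member and a part, 4 were called. In the cerebellum these were 3 of 18 members, cdh2, celsr3 and pcdh7, all lower in O. nasuta (2.48% of all genes were called in either direction, 1.21% as lower), and in the olfactory bulbs it was cdh22, higher in O. nasuta (2.73% in either direction, 1.51% as higher). In the brain stem, diencephalon, optic tectum and telencephalon 0 members were called, with 0, 1, 0 and 2 at an unadjusted p under 0.05 (1.06%, 1.46%, 1.82% and 2.1% of all genes were called there). The 95% confidence interval of the difference stayed within 1 log2 unit of 0 in 85 of the 108 pairs, and a difference of more than 2-fold lay outside the interval there. Which smaller differences lay outside it varied with the pair. The interval of pcdh7 in the optic tectum, for example, was −0.30 to 0.20. The 85 include the called difference of pcdh7 in the cerebellum (−0.74 to −0.20).

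cdh2 in the cerebellum had the smallest p of the 4, while the log2 difference of cdh22 in the bulbs was larger. cdh2 measured 99.2, 122, 153, 122 and 143 CPM in the cerebellum of O. nasuta and 253, 216, 209, 211 and 279 CPM in that of O. ventralis, with no overlap (log2 difference −0.85 ± 0.155, adjusted p = 0.000143). celsr3 measured 189, 195, 200, 217 and 211 CPM in O. nasuta, against 329, 312, 314, 362 and 421 CPM in O. ventralis, again without overlap (−0.77 ± 0.161, adjusted p = 0.00103). For pcdh7 the 197 to 249 CPM of O. nasuta also lay below the 267 to 326 CPM of O. ventralis, but the difference was smaller (−0.47 ± 0.135, adjusted p = 0.0373) and its call was lost when any of 7 single fish was left out. These members were picked by calls on the same values, so their lack of overlap is no separate support. The share of all genes without overlap between the species is not given. cdh22 in the bulbs measured 147, 168, 143 and 305 CPM in O. nasuta, against 187, 14.6, 67.2, 79.0 and 98.9 CPM in O. ventralis, which overlapped (0.91 ± 0.218, adjusted p = 0.00986). Its difference was 1.05 without the libraries lacking gnrh3 (adjusted p = 0.00129), and 0.64 and no longer called when O. nasuta fish 4 was left out.

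**Figure D4:**
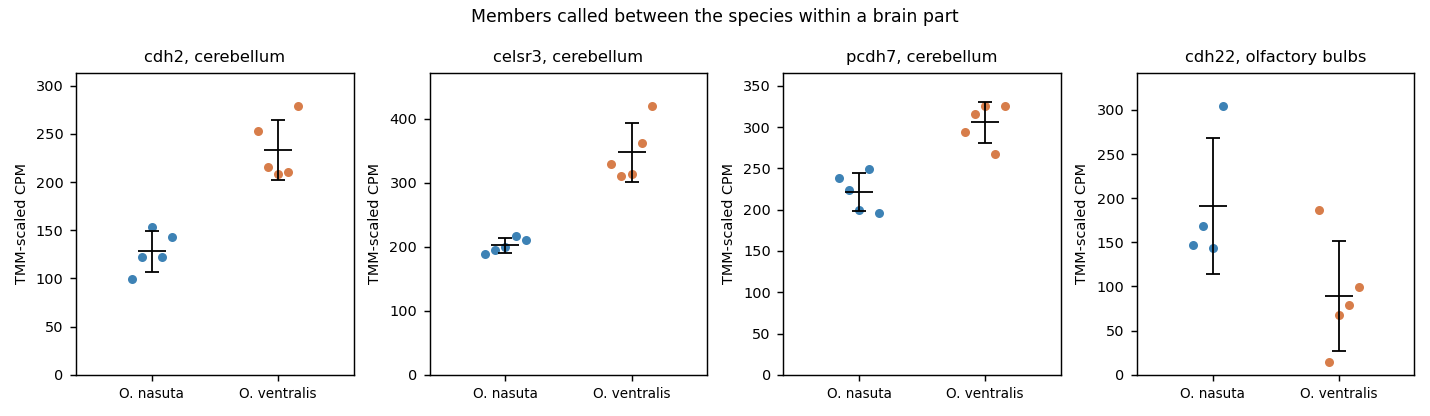
Level of the 4 members called between the species within a brain part, in TMM-scaled CPM per library (points), with O. nasuta left of O. ventralis and the mean and SD of each group (5 fish each, 4 for the bulbs of O. nasuta). In the cerebellum the O. nasuta libraries lie below those of O. ventralis for cdh2, celsr3 and pcdh7, whereas the bulb libraries overlap for cdh22.

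A test of the difference itself, whether the difference between 2 parts differs between the species, was passed by 1 member, cdh2 (joint adjusted p = 0.0417), and by 0.402% of all genes. The comparison behind it was cerebellum against diencephalon, where the interaction (O. nasuta minus O. ventralis) was −1.07 ± 0.217 (adjusted p = 0.0163, 0.0856% of all genes were called). Within single fish, cdh2 in the cerebellum minus cdh2 in the diencephalon was −1.54, −0.90, −1.06, −1.17 and −0.86 in the 5 O. nasuta and 0.14, −0.29, 0.03, 0.05 and 0.05 in the 5 O. ventralis (log2 scale). Every O. nasuta thus lay below every O. ventralis, in the same values on which cdh2 was called. The adjusted p of cdh2 is close to the threshold, and the call was lost in 9 of 10 fits with 1 fish left out, in which the value stayed between −1.14 and −0.99. The other 17 members did not pass, which does not show that their part differences are the same in both species.

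Of 12 genes in the catenin list, 9 were tested. Among them ctnnbip1 is a protein that binds beta-catenin and not itself a catenin. In the cerebellum 2 catenins were higher in both species (ctnnd1 and pkp4, relatives that bind the inner part of classic cadherins near the membrane) and 2 lower (ctnnal1 and ctnnb1), that is 2 of 9 in each direction, not far from the 15% and 17.1% of all genes. ctnnb1 (beta-catenin), which links classic cadherins to alpha-catenin and also acts in Wnt signalling, averaged 324 CPM (O. nasuta) and 285 CPM (O. ventralis) in the cerebellum and had a log2 fold change of −1.08 ± 0.171 in O. nasuta and −1.18 ± 0.17 in O. ventralis there (adjusted p = 5.23e-07 and 1.21e-07). In the optic tectum it was higher (0.96 ± 0.142 in O. nasuta and 0.94 ± 0.144 in O. ventralis, adjusted p = 1.77e-07 and 3.78e-07), together with ctnnbip1 and arvcf (3 of 9, against 10.2% of all genes). pkp4 had the largest value of the list, a log2 fold change of 3.71 ± 0.181 in O. nasuta and 3.75 ± 0.175 in O. ventralis in the cerebellum (adjusted p = 8.68e-22 and 1.67e-22). In the telencephalon 4 catenins were lower in both species (ctnna1, ctnnb1, pkp4, arvcf, 9.01% of all genes were) and ctnnbip1 was higher (12.6%).

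Among 42 other adhesion partners listed, 24 were tested. In the cerebellum 5 were higher in both species (fat1, fat2, vangl1, clstn2, ush1c) and 6 lower (fat3, fjx1, prickle2, prickle3, clstn1, ret), with 15% higher and 17.1% lower among all genes. In the optic tectum 6 were higher (fat1, fat2, fat4, clstn2, abi1, ush1c, 10.2% of all genes were) and 1 lower (clstn3, 5.6%). fat2, a giant cadherin known in mammals from the granule cells of the cerebellum, averaged 567 CPM (O. nasuta) and 522 CPM (O. ventralis) in the cerebellum (log2 fold change 5.87 ± 0.272 in O. nasuta and 4.84 ± 0.244 in O. ventralis, adjusted p = 1.70e-22 and 3.66e-21). fat1 averaged 980 CPM (O. nasuta) and 884 CPM (O. ventralis) there (2.13 ± 0.100 in O. nasuta and 1.94 ± 0.0992 in O. ventralis, adjusted p = 1.76e-32 and 3.26e-30). Both giant cadherins thus had high levels in the part where the type II cadherins were low. ush1c, an anchor of the tip-link cadherins in hair cells, was higher in the optic tectum of both species, as cdh23 and pcdh15 were, but also in the cerebellum, where pcdh15 was lower.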

How the data were processed

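Libraries were made with the QuantSeq 3′ kit from total RNA of 6 brain parts of 10 fish. The deposited values are raw read counts per gene. According to the study's methods and the processing notes, the authors trimmed the reads with Trimmomatic, mapped them to the genome of Oreochromis niloticus with STAR 2.5.2b and counted reads by strand over exons with HTSeq 0.6.1p1. A mapping quality minimum and the dropping of reads that touch several genes take reads from near-identical copies. The summary lines at the end of each count file name no gene and were left out. Libraries were assigned to species, part and fish by their labels, and no 2 libraries of a group agreed within counting noise (lowest chi-square per degree of freedom 1.22).

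The filter (above 15 CPM in 4 or more libraries) was followed by TMM normalization (edgeR 4.0.16, limma 3.58.1, R 4.3.3). Negative binomial models with quasi-likelihood F-tests held fixed terms for fish and for part within species. The 12 comparisons of a part with the other 5 parts, and separately the 15 differences of part contrasts between species, were adjusted stage-wise at a false discovery rate of 0.05. The species comparison inside each part had no fish terms and was adjusted per part by the Benjamini-Hochberg method. Same-numbered libraries come from 1 animal by their titles, and residuals of different parts of a fish correlated by 0.0534 on average, against −0.0134 between fish of a species. The edgeR procedure was also run on simulated counts with the same spread for every gene, no differences between fish and changes in the cerebellum alone. That setting is simpler than these data, so it does not give the error rates that hold here. SEs are those that the F-statistic implies.

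Members were named in the text if they were the 3 most and 2 least changed of those called in both species in a part, if they differed between species or if they led their class, and others were added to account for every member. The members, gene lists and classes were chosen with earlier results of these data known. Alternatives were other size factors (also DESeq2 1.42.0), filters and libraries, the model without fish terms, thinning to the shallowest library and leaving out each fish.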

Additional observations from a re-analysis of the deposited data

Results flagged for a closer look

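In groups of 4 or 5 libraries, a single library stood far from the rest of its group in 13 of 216 groups of a tested member, species and part. Chance alone sets apart about 1 in 20 such groups. Among classic cadherins, cdh20 measured 29.71 CPM in the cerebellum of O. nasuta fish 2 (2.89 to 9.02 CPM in the other 4), and cdh7 63.5 CPM in the diencephalon of O. ventralis fish 1 (21.8 to 32.2 CPM). cdh22 measured 304.9 CPM in the olfactory bulbs of O. nasuta fish 4 (143 to 168 CPM), the library without gnrh3 reads, and 154.7 CPM in the telencephalon of the same fish (195 to 206 CPM).

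Among protocadherins, pcdh10 measured 103.7 CPM in the olfactory bulbs of O. nasuta fish 3 (at most 56.0 CPM in the other 3) and 14.83 CPM, from 5 reads, in the cerebellum of O. ventralis fish 4 (55.8 to 71.2 CPM). pcdh17 measured 276 CPM in the brain stem of O. nasuta fish 2 (179 to 203 CPM). pcdh9 measured 431.7 CPM in the brain stem of O. nasuta fish 1 (318 to 345 CPM) and 339.1 CPM in the optic tectum of O. ventralis fish 1 (408 to 435 CPM).

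Of the other members, cdh13 measured 201.4 CPM in the cerebellum of O. nasuta fish 2 (88.9 to 121 CPM) and 29.11 CPM, from 4 reads, in the olfactory bulbs of O. ventralis fish 2 (110 to 127 CPM). cdh23 measured 168.1 CPM in the olfactory bulbs of O. ventralis fish 3 (7.28 to 36.5 CPM), and pcdh15 13.16 CPM in the telencephalon of O. nasuta fish 4 (27.4 to 31.4 CPM).

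The part difference of cdh2 differed between the species by −1.072 on the log2 scale (cerebellum minus diencephalon, O. nasuta minus O. ventralis, interaction test of edgeR, adjusted p = 0.0163). The bulb sample of O. nasuta fish 5 took no part in the comparisons and held 60 reads of the family among its 25798 counts, and of these 14 were from pcdh7, 7 from cdh18 and 6 from celsr3.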

How the results depend on the processing

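Of 98 called values of single members, 85 kept direction and call under every alternative other than thinning and leaving out a fish, and 72 kept them when the fits without 1 fish are added (85 to 96 in each). The species differences of cdh2 and celsr3 in the cerebellum lost their call under thinning alone, and pcdh7 also without the filter, with DESeq2 size factors, with all 60 libraries and without any of 7 fish. Without the replicate block (no fish terms), 17 members passed the joint test as before, and of 94 calls only that of celsr1 in the diencephalon of O. nasuta was lost. Thinning every library to the depth of the shallowest left too few reads for most members. It kept 27 calls, turned cdh20 in the brain stem (−0.24) and celsr1 in the diencephalon of O. nasuta (0.12), neither called, and moved the median of all genes by up to 0.126. Members called in both species were then 0 higher and 0 lower in the brain stem, 1 and 2 in the cerebellum, 0 lower in the diencephalon, 0 higher in the bulbs, 1 higher in the optic tectum, and 0 higher and 1 lower in the telencephalon. There was no member called (0) in the interaction or between species in cerebellum and bulbs.

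Higher in the brain stem were 4 members with filterByExpr and 4 with DESeq2 (cdh2, pcdh7, pcdh9, pcdh17), and higher in the bulbs 2 without the library of O. ventralis fish 3. The interaction held 0 members with all 60 libraries, 2 without the libraries lacking gnrh3 (cdh2, cdh22) and 2 with DESeq2 (cdh2, pcdh7). Between species in the bulbs, 2 members were called with DESeq2 size factors, all 60 libraries and DESeq2 (cdh22, pcdh7) and 2 with filterByExpr and the current edgeR fit (cdh22, pcdh19). With 1 fish left out, 0 to 3 members were higher in the brain stem, 1 to 4 in the bulbs, 3 to 5 lower in the diencephalon, 1 to 2 lower in the telencephalon, 0 to 1 in the interaction and 0 to 2 between species in the bulbs. The lowest counts were those without O. ventralis fish 5 (brain stem), O. ventralis fish 1 (bulbs), either of these (diencephalon) and O. nasuta fish 4 (species, bulbs). Without the most abundant member of each class, the log2 ratio of classic cadherins to protocadherins was −3.22 and −3.29 in the cerebellum of O. nasuta and O. ventralis, −0.29 and −0.32 in the bulbs and −1.11 and −1.19 in the optic tectum. The causes were not tested. Depth limits the low members most, as 3 reads make 2.09 to 21.8 CPM.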
